A study of Mus musculus with 6 samples.

Results

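The mature miRNAs miR-221-3p, miR-222-3p, miR-182-5p, miR-183-5p and miR-96-5p come from 2 gene clusters known for their response to nerve injury and to T cell activation. They were chosen by name, and all 5 were found among the 1281 entries of the count table. Of the 5, 4 had a read in any library, and 3 (miR-221-3p, miR-222-3p and miR-182-5p) reached 50 reads in a library.

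They were measured by small RNA sequencing of mouse serum after a sciatic nerve allograft, in which a stretch of nerve from a Balb/c donor bridged a gap cut in the sciatic nerve of the recipient. The 6 libraries are FK506 at days 3, 7 and 14 after surgery and untreated at the same days, with 1 library per treatment and day. FK506 (tacrolimus) blocks calcineurin, and with it the activation of T cells. It was injected under the skin at 1 mg/kg per day throughout, while the untreated animals had the same graft and no FK506. All animals were male and 10 to 12 weeks old. The labels give C57BL/6 as the strain of every sample, but their surgical text names Balb/c recipients in one place. They state 3 animals per group and day, and do not say whether a library holds 1 animal or several. No serum from ungrafted or sham-operated mice was analysed here, so every value comes from a grafted animal.

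The pair miR-221 and miR-222 is made from a shared primary transcript and represses cell cycle inhibitors such as Cdkn1b. In rat Schwann cells both are induced after sciatic nerve injury and favour proliferation and migration. The other cluster, miR-183, miR-96 and miR-182, is best known from sensory organs, where miR-96 is needed for hearing in mice and humans. Its member miR-182 is induced by interleukin signals in activated mouse helper T cells and represses Foxo1, and in injured rat nerve it restrains Schwann cell growth.

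The sequences show which members could act on the same targets and which could be mistaken for each other in read matching. They are the RefSeq mature miRNAs of build GRCm38.p6, written 5′ to 3′, with the seed (bases 2 to 8), the stretch that pairs with target RNAs, in capitals.
miR-221-3p: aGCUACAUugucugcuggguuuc
miR-222-3p: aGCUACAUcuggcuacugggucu
miR-182-5p: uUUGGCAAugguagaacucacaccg
miR-183-5p: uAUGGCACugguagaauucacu
miR-96-5p: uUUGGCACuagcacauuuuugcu

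The miR-221-3p and miR-222-3p seeds are the same, and the 2 miRNAs are identical over their first 8 bases and at 11 of 23 positions in all. The table's only other miRNA with that seed, miR-1928, had 0 reads in every library. In the other cluster every seed differs: miR-96-5p shares 6 of 7 seed positions with miR-182-5p and with miR-183-5p, and miR-182-5p shares 5 with miR-183-5p. Over their whole length miR-182-5p and miR-183-5p are identical at 18 of 22 positions. The sources used here do not give the mismatch setting of the read matching, so a miR-182-5p read credited to miR-183-5p cannot be told apart from a true one.

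Both clusters lie on the minus strand. Mir221 (chrX:19146294-19146388) and Mir222 (chrX:19146893-19146971) are separated by 504 bases. Mir182 (chr6:30165918-30165992) lies 3453 bases from Mir96 (chr6:30169446-30169551), and Mir96 lies 116 bases from Mir183 (chr6:30169668-30169737). In GENCODE release M21 of the same build no other gene overlaps any of the 5 precursors. The 2 X-linked precursors are shown with the mature 3p arm in capitals, because their arms could be counted separately.
Mir221: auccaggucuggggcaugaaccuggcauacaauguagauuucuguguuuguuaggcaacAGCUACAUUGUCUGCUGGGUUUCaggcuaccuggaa
Mir222: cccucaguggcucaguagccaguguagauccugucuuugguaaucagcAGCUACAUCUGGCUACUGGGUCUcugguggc

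Nearly all reads of these precursors came from the arm named as a member. The 3p arm took 99.6% of the Mir221 reads (1627 against 7 of miR-221-5p, exact 95% binomial interval 99.1% to 99.8%) and 98.4% of the Mir222 reads (1372 against 22 of miR-222-5p, 97.6% to 99.0%). By library the 3p share ran from 98.7% to 100% for Mir221 and from 97.1% to 99.0% for Mir222, with overlapping intervals. The partner arms miR-182-3p, miR-183-3p and miR-96-3p had 0 reads in all 6 libraries.

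Library totals were 4897727 to 5806228 counts. The red cell miRNA miR-486-5p and the entry miR-3107-5p together took 93.8% to 98.0% of each, which left 103058 to 359061 reads for everything else. The 5 members together made up 0.327%, 0.466% and 0.397% of those other reads in FK506 serum at days 3, 7 and 14, against 0.272%, 0.323% and 0.340% in untreated serum. That order depends on the scale. With the TMM library sizes used below, the order at day 7 was reversed. FK506 had 480 reads for a size of 3756948, and untreated 964 for 5168387. At day 14 the arms were then close, with 1427 reads for 12080863 and 539 for 4446426. The untreated day 7 library stands apart from the others. It held 10032 reads of the 6 neuron and glia markers found in the table (among them miR-9-5p, miR-124-3p and miR-338-3p), against 97 to 459 in the other 5 libraries, where 4 or 5 of the 6 were at 0. Results that rest on it are therefore given with that library named.

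Levels below are reads, or CPM (reads per unit of library size) after TMM scaling, which sets libraries side by side by the bulk of their miRNAs. The members are 22 to 25 nt long and reads were counted per miRNA, so no length correction was applied. Intervals are exact 95% intervals and cover counting error only, since no molecular identifiers are described. In serum, fewer cells of a type and less RNA released per cell cannot be told apart.

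miR-221-3p was highest in FK506 serum at day 7 and lowest in untreated serum at day 3. It had 149, 287 and 582 reads in FK506 serum at days 3, 7 and 14, against 141, 257 and 211 reads in untreated serum. As TMM-scaled levels these were 42.8, 76.4 and 48.2 CPM with FK506, and 25.9, 49.7 and 47.5 CPM untreated. Each of those 2 libraries was apart from the rest by its counting interval. The 4 between them ran from 42.8 to 49.7 CPM, and their intervals overlapped.

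miR-222-3p was highest in untreated serum at day 7. It had 86, 132 and 289 reads in FK506 serum at days 3, 7 and 14, against 124, 632 and 109 reads in untreated serum, or 24.7, 35.1 and 23.9 CPM with FK506 against 22.8, 122 and 24.5 CPM untreated. FK506 day 7 came second, its interval of 29.4 to 41.7 CPM lying above those of FK506 day 14 and untreated day 3, and the 4 libraries of days 3 and 14 lay within overlapping intervals.

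miR-182-5p was lowest at day 7 in both arms. It had 101, 61 and 519 reads in FK506 serum at days 3, 7 and 14, against 166, 71 and 215 reads in untreated serum. Its TMM-scaled levels were 29.0, 16.2 and 43.0 CPM with FK506, and 30.5, 13.7 and 48.4 CPM untreated. At each day the 2 arms had overlapping intervals on this scale. Within each arm day 7 lay below day 3 and day 3 below day 14, with no overlap between neighbours.

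Per 100000 reads outside miR-486-5p and miR-3107-5p the untreated day 7 library took another place for miR-221-3p. On that scale miR-221-3p was at 142, 278 and 162 with FK506, and at 88.0, 86.2 and 133 untreated, so untreated day 7 was as low as untreated day 3. miR-222-3p was at 82.2, 128 and 80.5 with FK506, and at 77.4, 212 and 68.8 untreated, with untreated day 7 again the highest. miR-182-5p was at 96.6, 59.2 and 145 with FK506, and at 104, 23.8 and 136 untreated. Day 7 stayed the lowest of each arm, and here the FK506 day 7 library lay above the untreated one. This scale counts miR-181a-5p, which had 94740 reads in untreated day 7 and 2265 to 7981 in the other libraries.

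**Figure D1:**
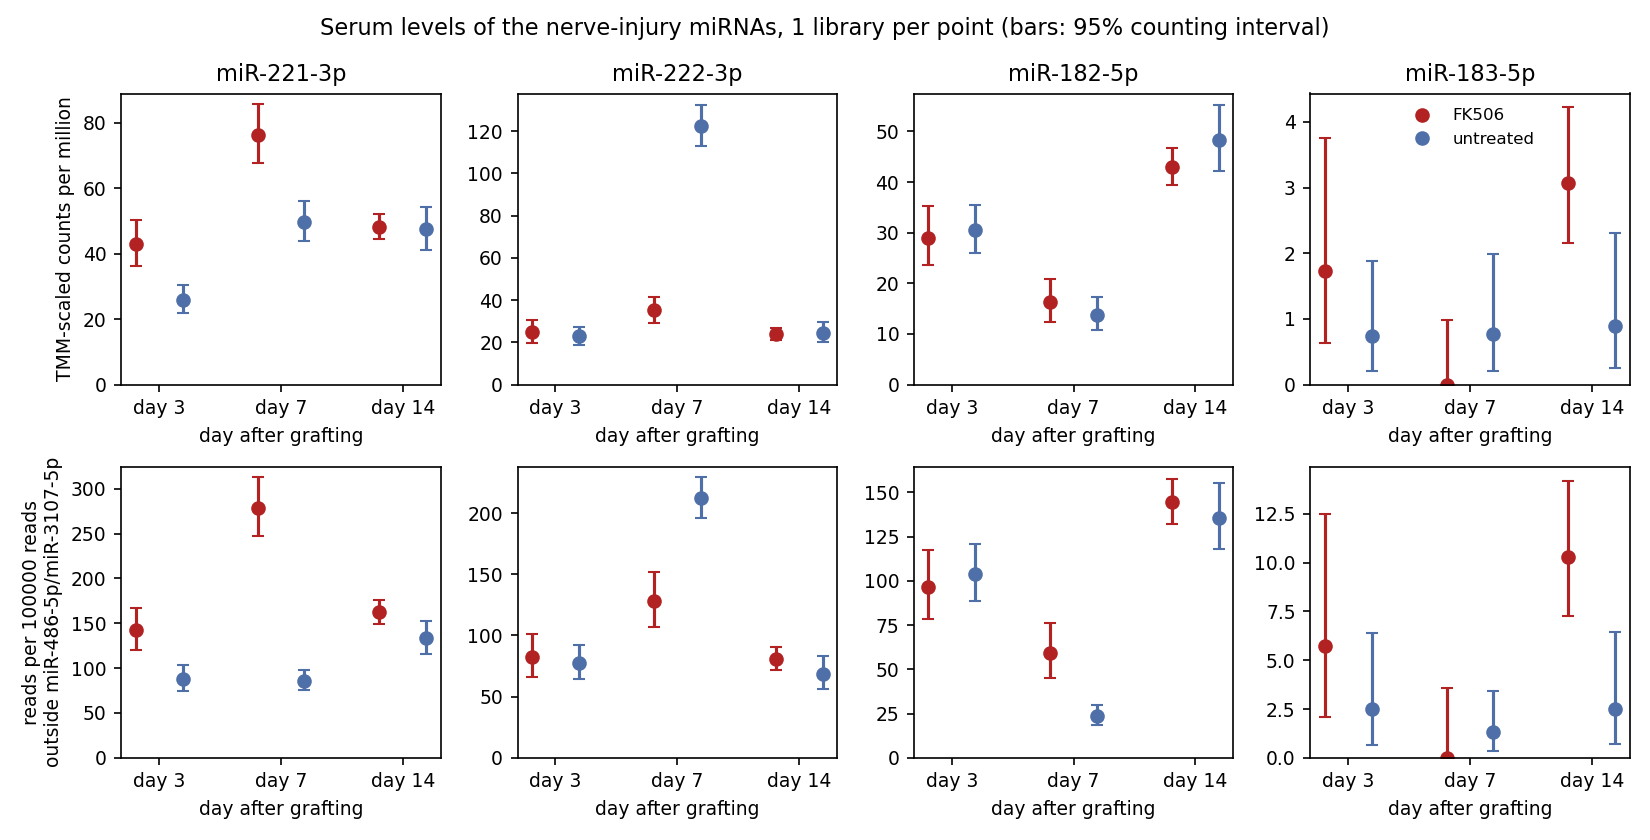
Levels of 4 members by day, FK506 (red) left of untreated (blue), in TMM-scaled CPM (upper row) and per 100000 reads outside miR-486-5p and miR-3107-5p (lower row). Each point is 1 library and bars are exact 95% counting intervals; miR-222-3p stands at 122 CPM in untreated day 7 against 22.8 to 35.1 CPM elsewhere, and miR-182-5p is lowest at day 7 in both arms.

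miR-183-5p was scarce, with 6, 0 and 37 reads in FK506 serum at days 3, 7 and 14, against 4 reads in each untreated library. Its level was 3.06 CPM (2.16 to 4.22) in FK506 at day 14 and 0.900 CPM (0.245 to 2.30) in untreated serum at day 14. A count of 0 was taken as at most 3 reads, which is not the exact interval used elsewhere. The 0 reads in FK506 at day 7 then allow up to 2.91 per 100000 reads outside miR-486-5p and miR-3107-5p (3.58 by the exact interval). That is more than the 1.34 per 100000 measured in untreated day 7, so no difference was detectable there. Relative to miR-182-5p it had 0.0713 reads per read (0.0496 to 0.0996) in FK506 day 14 and 0.0186 (0.00502 to 0.0483) in untreated day 14. The first interval lies just above the second, which rests on 4 miR-183-5p reads. The other 4 libraries had at most 0.0594, and their intervals overlap that of FK506 day 14.

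miR-96-5p had 0 reads in all 6 libraries. A count of 0, again taken as at most 3 reads, allows up to 2.87, 2.91 and 0.836 per 100000 reads outside miR-486-5p and miR-3107-5p in FK506 serum at days 3, 7 and 14, against up to 1.87, 1.01 and 1.89 in untreated serum. It was thus below detection while miR-182-5p, encoded in the same cluster, had 1133 reads over the libraries.

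Does FK506 change these miRNAs in serum? With 1 library per treatment and day, each day was described by a log2 ratio of the 2 libraries' scaled reads (prior count 2), with no replicate check and no p-value. A miRNA is called past the size rule when that ratio is at least 1 or at most -1 (a 2-fold difference) and 1 of the 2 libraries holds at least 50 reads. At day 3, 0 of the 3 members with 50 reads passed the rule, where 32.3% of the 99 miRNAs compared did (21.2% higher with FK506 and 11.1% lower). miR-221-3p was 1.65-fold higher with FK506 (1.30 to 2.10), miR-222-3p had a ratio of 1.08 (0.814 to 1.44) and miR-182-5p one of 0.952 (0.736 to 1.23). With library totals as the scale the ratio of miR-221-3p was 1.09 (0.858 to 1.38), and the median log2 ratio of all compared was -0.53, against 0.04 with TMM.

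At day 7, 1 of the 3 passed, miR-222-3p, while 65.9% of the 129 miRNAs compared passed, 19.4% higher with FK506 and 46.5% lower. A lower call was thus common in this comparison. miR-222-3p was 3.48-fold lower with FK506 (2.88 to 4.23), at a log2 ratio of -1.79 against a median of -0.74 over all compared. It was at -2.29 scaled to the library total. Scaled to the reads outside miR-486-5p and miR-3107-5p, a setting chosen after seeing the data, it was at -0.72 and did not pass. miR-221-3p was 1.54-fold higher (1.29 to 1.83) and miR-182-5p had a ratio of 1.18 (0.825 to 1.69). Under that last setting these 2 did pass, at 1.68 and 1.28, where 45 of the 129 compared were higher and 46 lower. The median log2 ratio over all compared was then 0.33, against -0.74 with TMM. Of the 298117 reads outside miR-486-5p and miR-3107-5p in untreated day 7, 94740 were miR-181a-5p, against 2421 of 103058 in FK506 day 7. That setting was not run without miR-181a-5p. The marker sum of neuron and glia miRNAs was 282 reads in FK506 day 7 and 10032 in untreated day 7, and its part in these ratios was not tested.

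At day 14 none of the 3 members passed, against 36.2% of 130 compared (20.8% higher and 15.4% lower). The ratios were 1.02 for miR-221-3p (0.866 to 1.19), 0.976 for miR-222-3p (0.780 to 1.23) and 0.888 for miR-182-5p (0.756 to 1.05), all within counting error of no difference. The call depends on the scaling. Scaled to the library total, all 3 members were past the rule with log2 ratios of 1.34, 1.27 and 1.15, and the median of all 130 was then 1.32. Of the 130, 84 were then higher and 3 lower. The 3 members thus lay near the bulk of the miRNAs. miR-183-5p was 3.40-fold higher with FK506 (1.22 to 13.1) on 37 against 4 reads, under the 50-read minimum, and at 8.53-fold (3.07 to 33.0) scaled to the total.

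**Figure D2:**
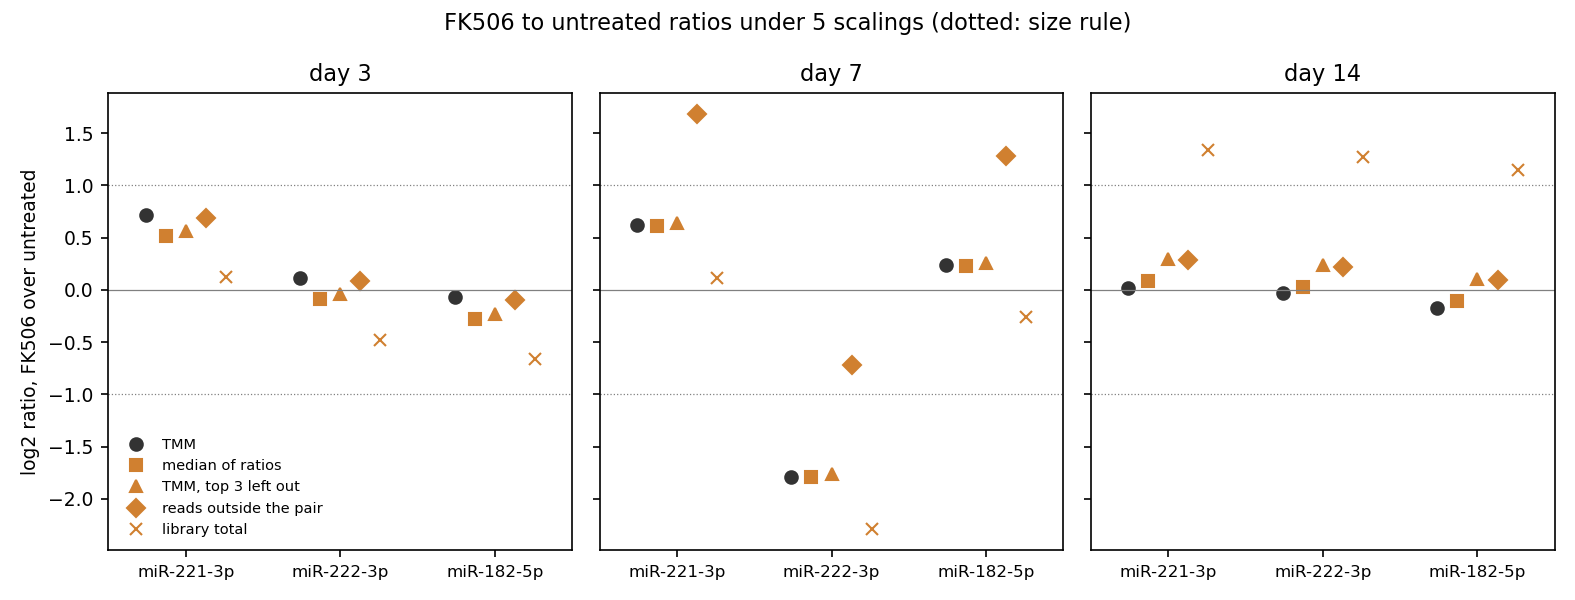
Log2 ratio of FK506 over untreated (vertical axis) for the 3 well-measured members at each day under 5 scalings; black circles are TMM, and dotted lines mark 1 and -1. At day 7 miR-222-3p lies below 0 under every scaling (-2.29 to -0.72) while miR-221-3p lies above 0 (0.11 to 1.68), and at day 14 only scaling to the library total puts the members past 1.

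Across the days, all 6 libraries were fitted with treatment and day as terms by edgeR's quasi-likelihood test over 153 miRNAs, with Benjamini-Hochberg adjustment. miR-183-5p and miR-96-5p were too scarce to enter. For FK506 against untreated, 0% of miRNAs passed an adjusted p of 0.05, and 17 (11.1%) lay under an unadjusted 0.05, none of them a member. The log2 change was 0.46 ± 0.59 for miR-221-3p (SE, edgeR adjusted p = 0.850), -0.56 ± 0.66 for miR-222-3p (edgeR adjusted p = 0.828) and -0.0026 ± 0.60 for miR-182-5p (edgeR adjusted p = 0.997). By TMM ratio miR-221-3p was higher with FK506 at 3 of 3 days, miR-222-3p at 1 and miR-182-5p at 1. Without the untreated day 7 library the value of miR-222-3p was 0.035. A 2-fold change lies within 2 SE of each of these 3 values, so the p-values do not show that FK506 left the members unchanged.

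The ratio of 2 miRNAs inside a library needs no scaling between libraries. miR-222-3p had 0.577, 0.460 and 0.497 reads per miR-221-3p read in FK506 serum at days 3, 7 and 14, against 0.879, 2.46 and 0.517 in untreated serum. In untreated day 7 the order of the pair was reversed: its interval of 2.12 to 2.85 lies above that of every other library, the next highest being 0.685 to 1.13 in untreated day 3. The 3 FK506 libraries and untreated day 14 lay within overlapping intervals. FK506 had the lower ratio at 3 of 3 days, by 0.61, 2.42 and 0.06 on the log2 scale. The mean log2 ratio was -0.97 ± 0.17 with FK506 and 0.05 ± 1.14 untreated (SD, n = 3 days each), and a two-sided exact permutation test gave p = 0.2, where 3 against 3 libraries cannot go below 0.1. Flipping the arms within days gave an exact permutation p of 0.25, the smallest that 3 days allow. Both tests were chosen after the values were seen.

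Other miRNAs encoded close together, compared after the values were seen, give a scale for this shift. Pairs were formed from the main arms of precursors within 10000 bases on the same strand, each mature sequence found in 1 RefSeq precursor, with at least 10 reads of each miRNA in both libraries of a day. At day 7 the ratio of miR-221-3p to miR-222-3p differed by 2.41 on the log2 scale between FK506 and untreated. Of 11 other pairs, 3 differed by more, and their median absolute difference was 1.04. At day 3 the difference was 0.60, against a median of 0.77 over 11 other pairs, and at day 14 it was 0.06, against 0.60 over 13. With only 20 reads over the 2 libraries asked for, 9 of 28 other pairs differed by more at day 7, and 6 of those 9 hold a miRNA with under 10 reads in 1 of the libraries. Several pairs share a miRNA, so they are not independent.

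**Figure D3:**
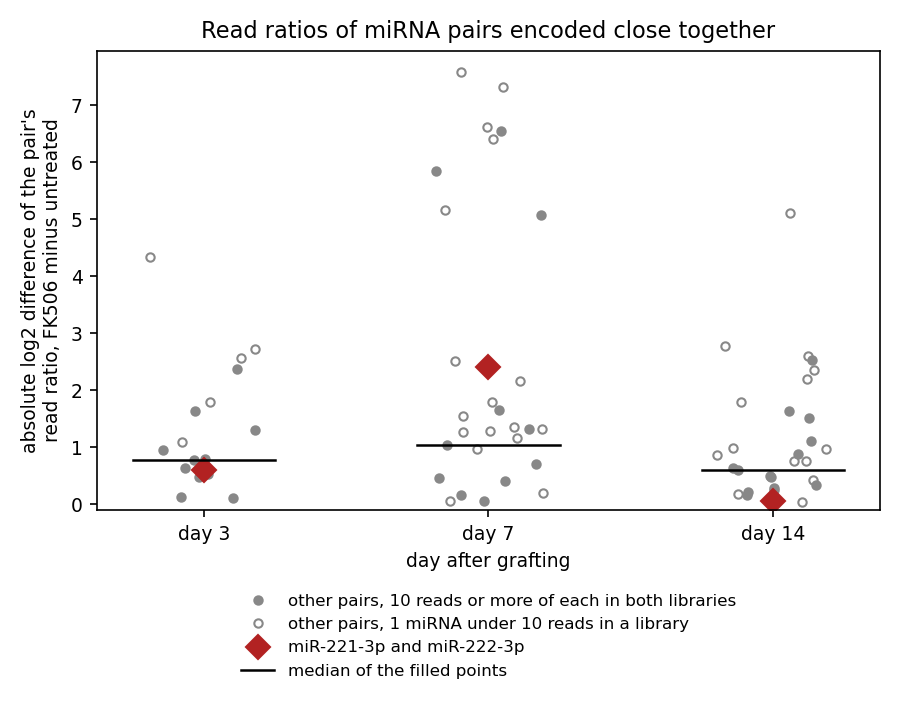
Absolute log2 difference, FK506 minus untreated, of the read ratio of miRNA pairs encoded within 10000 bases of each other (vertical axis) at each day; grey points are other pairs (filled where each miRNA has at least 10 reads in both libraries, open otherwise), red diamonds miR-221-3p with miR-222-3p, black bars the median of the filled points. The red diamond stands at 2.41 at day 7, where 3 of 11 filled points lie above it, and at 0.06 at day 14.

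Between the clusters, miR-182-5p had 0.430, 0.146 and 0.596 reads per read of miR-221-3p plus miR-222-3p in FK506 serum at days 3, 7 and 14, against 0.626, 0.0799 and 0.672 in untreated serum. The day 7 libraries are the lowest of each arm. The same holds against miR-221-3p alone, a ratio added after seeing the data because it leaves out the high miR-222-3p of untreated day 7. It was 0.678, 0.213 and 0.892 with FK506, and 1.18, 0.276 and 1.02 untreated. Its intervals at day 7, 0.159 to 0.281 with FK506 and 0.209 to 0.361 untreated, lie below every interval of days 3 and 14, the lowest of which starts at 0.521. FK506 had the lower ratio at 3 of 3 days, by 0.80, 0.38 and 0.19 on the log2 scale. Flipping the arms within days gave a two-sided exact permutation p of 0.25, the smallest that 3 days allow, and the unpaired test gave p = 0.5.

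**Figure D4:**
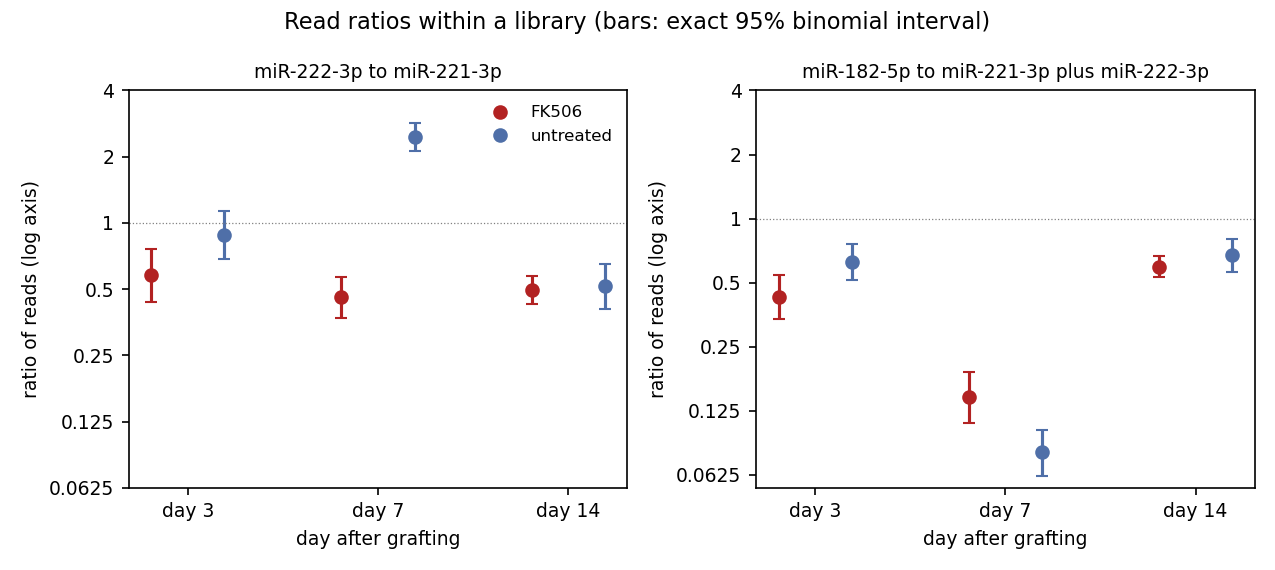
Read ratios within a library (vertical log axis) by day, FK506 (red) left of untreated (blue), with exact 95% binomial intervals. Left, miR-222-3p to miR-221-3p is 2.46 in untreated day 7 and 0.460 to 0.879 in the other libraries; right, miR-182-5p to the sum of both is 0.146 with FK506 and 0.0799 untreated at day 7, against 0.430 to 0.672 at days 3 and 14.

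How did the members move after day 3 within an arm? In FK506 serum 0 of the 3 passed the size rule at day 7 against day 3, where 9.68% of 93 miRNAs did (3.23% higher at day 7 and 6.45% lower). miR-221-3p was at 1.78-fold (1.46 to 2.19), miR-222-3p at 1.42-fold (1.07 to 1.89) and miR-182-5p at 0.559-fold (0.400 to 0.776). In FK506 at day 14 against day 3 again 0 passed, against 26.6% of 128 (10.2% higher and 16.4% lower), and miR-182-5p was at 1.48-fold (1.19 to 1.85). Scaled to the library total all 3 passed at day 14, with log2 ratios of 1.74 for miR-221-3p, 1.51 for miR-222-3p and 2.12 for miR-182-5p, beside a median of 1.72 over all compared. Of the 128, 92 were then higher and 0 lower.

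In untreated serum 2 of the 3 passed at day 7 against day 3, where 61.7% of 128 did. miR-222-3p was 5.37-fold higher (4.42 to 6.56), in a comparison in which 47.7% of miRNAs were called higher. miR-182-5p was 2.22-fold lower (1.67 to 2.98), where 14.1% were called lower and the median log2 ratio was 0.92. Both calls held under all 6 other settings, with log2 ratios of 1.44 to 2.42 for miR-222-3p and -2.08 to -1.13 for miR-182-5p. miR-221-3p was at 1.92-fold (1.56 to 2.37), or 0.979-fold (0.794 to 1.21) scaled to the reads outside miR-486-5p and miR-3107-5p. At day 14 against day 3 untreated, 0 passed, against 17.6% of 102 (10.8% higher and 6.86% lower), with miR-221-3p at 1.83-fold (1.47 to 2.28) and miR-182-5p at 1.59-fold (1.29 to 1.95).

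In the fit across both arms no member passed for any pair of days, and 0% of the 153 miRNAs did with edgeR. Under an unadjusted 0.05 lay 7 miRNAs (4.58%) at day 7 relative to day 3, and 0 (0%) at day 14 relative to day 3. At day 14 relative to day 7 there were 11 (7.19%). Among those 11 was miR-182-5p, with a log2 change of 1.61 ± 0.73 (SE), an unadjusted p of 0.0475 and an edgeR adjusted p of 0.572; it was higher in 2 of 2 arms. For miR-222-3p the change at day 7 relative to day 3 was 1.56 ± 0.81 (edgeR adjusted p = 0.907), or 0.50 without the untreated day 7 library. miR-221-3p had 0.88 ± 0.73 at day 7 relative to day 3 (edgeR adjusted p = 0.930), and miR-182-5p had -0.99 ± 0.73 (edgeR adjusted p = 0.930).

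Which other miRNAs followed the members over the 6 libraries? Likeness was the root mean square distance between log2 levels, each centred on its own mean, among 191 other miRNAs with at least 50 reads in all. Nearest to miR-222-3p were miR-125b-1-3p (distance 0.26), miR-181c-5p (0.38) and miR-99a-5p (0.38), against a median of 1.09. All 3 were highest in untreated day 7, with miR-181c-5p at 145, 209 and 864 reads in FK506 serum at days 3, 7 and 14, against 336, 1344 and 336 in untreated serum. Its cluster partner miR-221-3p was only the 46th nearest, at 0.84.

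For miR-221-3p the nearest were let-7d-3p (0.23), miR-423-3p (0.35) and miR-421-3p (0.35), against a median of 0.91. For miR-182-5p they were miR-148a-3p (0.26), the blood cell miRNA miR-16-5p (0.30) and miR-1843b-5p (0.31), against a median of 1.04. Its cluster partner miR-183-5p was 54th, at 0.79, on few reads. miR-16-5p had 2549, 2793 and 16659 reads in FK506 serum at days 3, 7 and 14, against 4598, 2098 and 5121 in untreated serum. Set against it, miR-182-5p had 0.0396, 0.0218 and 0.0312 reads per miR-16-5p read with FK506, against 0.0361, 0.0338 and 0.0420 untreated, so the 2 parted most in FK506 at day 7. The nearest to the scarce miR-183-5p were miR-148b-3p (0.59), miR-148a-3p (0.66) and miR-21a-5p (0.67). The points share 6 libraries and their scaling.

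**Figure D5:**
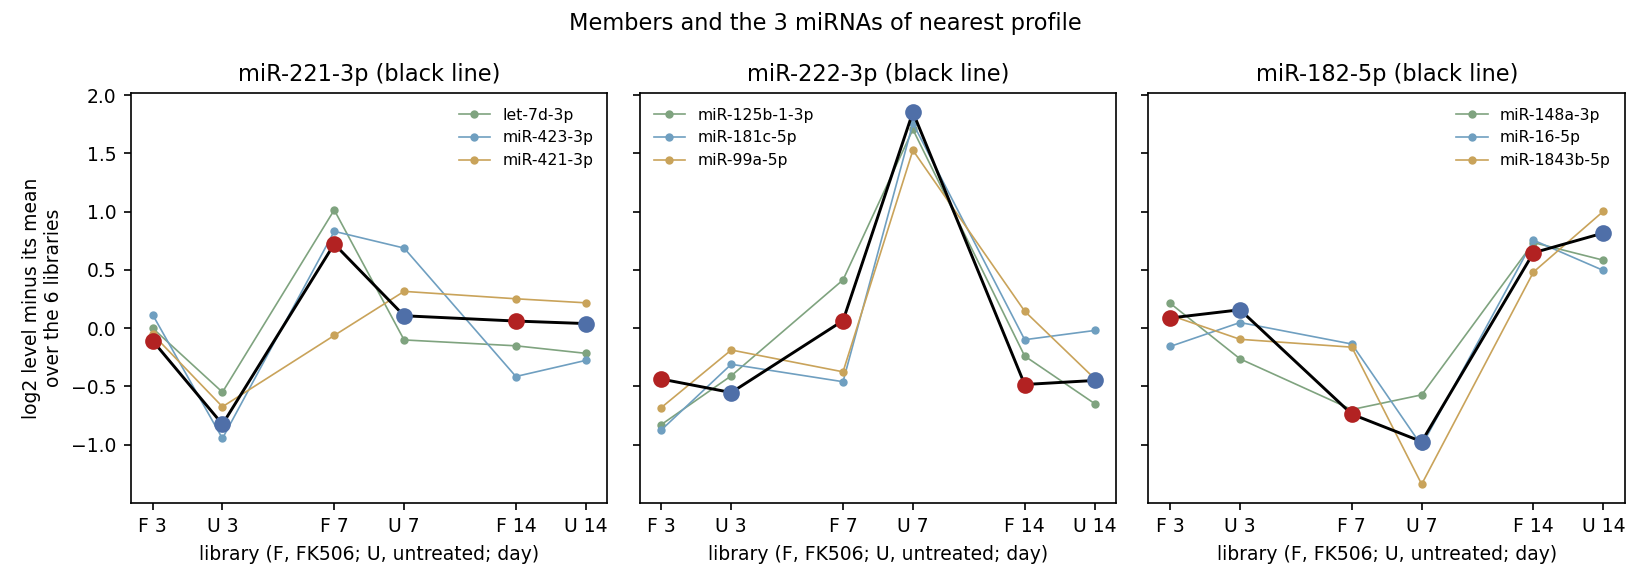
Log2 level of each member (black line; red points FK506, blue untreated) and of its 3 nearest miRNAs (coloured lines), minus the mean over the 6 libraries. The miR-222-3p group peaks in untreated day 7, and miR-182-5p itself is low at day 7 and high at day 14 in both arms.

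Markers of blood and vessel cells were set beside these profiles. The 4 red cell markers (miR-451a, both arms of miR-144, miR-486-3p) summed to 954, 955 and 635 CPM in FK506 serum at days 3, 7 and 14, against 603, 484 and 756 CPM in untreated serum. The lysis measure, miR-451a reads per miR-23a-3p read, was 23.5, 13.7 and 26.4 with FK506, and 21.0, 43.6 and 14.5 untreated. The value of 43.6 (24.7 to 84.9) in untreated day 7 rests on 12 miR-23a-3p reads. miR-486-3p was the largest part of the red cell sum except in FK506 day 14, where it had 3492 reads and miR-451a 4012. miR-451a alone had 776, 765 and 4012 reads with FK506, and 1326, 523 and 796 untreated, and its log2 ratio to day 3 was -0.13 at day 7 and 0.57 at day 14 with FK506, and -1.27 and -0.44 untreated. Like miR-182-5p it was lowest at day 7 in each arm, though by little with FK506. The other red cell markers did not share this. miR-486-3p had log2 ratios to day 3 of 0.06 at day 7 and -1.27 at day 14 with FK506, and 0.17 and 0.76 untreated. miR-144-3p had -0.59 and -1.76 with FK506, and 0.10 and -0.31 untreated. miR-144-5p had -0.54 and -0.92 with FK506, and -1.41 and -0.23 untreated, so it was lowest at day 7 only untreated. The 4 platelet and endothelial markers, such as miR-126-5p and miR-223-3p, summed to 102, 61.0 and 202 CPM with FK506, and to 50.5, 102 and 52.2 CPM untreated. Most reads of that sum were miR-126-5p, with log2 ratios of FK506 to untreated of 1.07, -0.87 and 2.09 at the 3 days. The other markers differed from it: miR-223-3p had 0.90, 1.05 and 1.80, miR-126-3p -0.02, -0.12 and 1.28, and miR-24-3p 1.29, -1.36 and 0.75. The 3 lymphocyte markers, led by miR-150-5p, summed to 1609, 1060 and 758 CPM with FK506, and to 187, 112 and 150 CPM untreated. Nearly all of that sum was miR-150-5p, except in untreated day 7, where it had 426 of 581 reads and miR-342-3p 150. miR-342-3p had log2 ratios of FK506 to untreated of 0.56, -1.02 and -0.17 at the 3 days, and miR-155-5p, on 2 to 8 reads, of 0.19, -0.58 and -1.06. The 7 epithelial markers, led by miR-375-3p, summed to 526, 350 and 234 CPM with FK506, and to 258, 215 and 310 CPM untreated. Most reads of the epithelial sum were miR-375-3p, with log2 ratios of FK506 to untreated of 1.01, 0.67 and -0.49 at the 3 days. The other epithelial markers did not share the lower value at day 14. There miR-205-5p had 0.05, miR-141-3p 0.96, miR-200a-3p 0.24 and miR-200b-3p 0.22. miR-429-3p had 3.79, on 54 reads with FK506 and 0 untreated, and miR-200c-3p had 0 reads in both. The part of any of these cell types in the members' levels was not tested.

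The members were also read beside other miRNAs linked to peripheral nerve injury and Schwann cells, a list of 16 that were all found in the table. At day 7, 7 of the 12 compared were lower with FK506 and 0 higher, beside 46.5% lower and 19.4% higher of all compared, and the median log2 ratio was -2.51 against -0.74. Of these 12, however, 5 reached 50 reads only in untreated day 7, so a difference was built into their inclusion. Of the 7 with 50 reads in both libraries, 2 were lower and 0 higher, with a median of -0.62. Over the 78 miRNAs with as many, 28.2% were lower and 23.1% higher, with a median of -0.13. Among the 5 was miR-204-5p, made in Schwann cells and other glia, with 21 reads with FK506 and 1939 untreated. miR-27b-3p had 821 and 8323 reads (log2 ratio -2.88). The inflammation-regulated miR-146b-5p had 56 and 358 reads (-2.19), and miR-21a-5p, induced in injured nerve, had 406 and 857 (-0.62). At day 3, 1 of 7 was lower and 0 higher (median -0.09), beside 11.1% and 21.2% of all compared. At day 14, 1 of 10 was higher and 1 lower (median -0.12), beside 20.8% and 15.4%, the lower one being let-7d-5p at -2.16. The higher one was miR-204-5p, on 93 reads with FK506 and 12 untreated. Of these 10, 2 reached 50 reads only in the FK506 library, miR-204-5p among them. Of the 8 with 50 reads in both, 0 were higher and 1 lower (median -0.12). Over the 92 miRNAs with as many, 9.78% were higher and 18.5% lower. The most abundant of the list, let-7c-5p, had log2 ratios of 0.53, -0.27 and -0.60 at days 3, 7 and 14. In the edgeR fit 0 of 10 list members passed for FK506 against untreated. Under an unadjusted 0.05 lay 0 of the 10, beside 11.1% of the 153 miRNAs fitted.

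Of 16 miRNAs linked to T cell activation, also all found, 1 was higher and 1 lower of 6 with FK506 at day 3 (median 0.04), beside 21.2% and 11.1% of all compared. At day 7, 1 was higher and 3 lower of 7 (median -0.62), beside 19.4% and 46.5%. Of these 7, however, 2 reached 50 reads only in the untreated library. Of the 5 with 50 reads in both, 1 was higher and 1 lower (median 0.41). Over the 78 miRNAs with as many, 23.1% were higher and 28.2% lower (median -0.13). At day 14, 4 were higher and 1 lower of 7 (median 1.07, against 0.01 over all compared), beside 20.8% and 15.4%. Of the 7 at day 14, 2 reached 50 reads only in the FK506 library, and of the 5 with 50 reads in both, 2 were higher and 1 lower (median -0.02). Over the 92 miRNAs with as many, 9.78% were higher and 18.5% lower (median -0.21). miR-150-5p, which falls when T cells are activated, was higher at each day (3.19, 3.66 and 2.42). miR-181a-5p, which tunes T cell receptor signalling, was lower at days 3 and 7 (-1.17, -4.83 and -0.98). miR-92a-3p of the miR-17 to miR-92 cluster was at 0.70, 0.56 and -1.03, and miR-146a-5p, a feedback regulator of inflammation, at -0.35, 0.41 and 1.34. miR-19b-3p was at 0.04, -1.35 and 1.07, and miR-27a-3p at 2.00, 1.27 and 1.61. The best known miRNA of activated T cells, miR-155-5p, had 2 to 8 reads per library. In the edgeR fit 0 of 9 list members passed for FK506 against untreated. Under an unadjusted 0.05 lay 3 of the 9, beside 17 (11.1%) of the 153 miRNAs fitted.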

How the data were processed

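The authors deposited raw read counts per mature miRNA in serum libraries, with no normalization. Per the labels' protocols, reads were trimmed of linkers, kept at 15 to 29 nt and matched to mouse miRNAs of miRBase 20.0 with Bowtie and BLAST; 11 libraries shared a lane, of which 6 are analysed here. The sources used here give no versions, mismatch setting, genome build or rule for reads that match several entries.

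Counts were filtered with filterByExpr (minimum count 10) and scaled by TMM in edgeR 4.0.16 (R 4.3.3). edgeR's quasi-likelihood test had day and treatment as terms, Benjamini-Hochberg adjustment over 153 miRNAs and 2 residual degrees of freedom: with no second library of any group, its spread is how far the treatment effect varied between days, which may be technical. It was tested on simulated counts. DESeq2 1.42.0 and limma 3.58.1 were alternatives. Intervals and permutation tests used scipy 1.17.1. Members were matched by exact name, and all 5 had a RefSeq sequence. Named beside them are the other arms, miRNAs with the same seed, the 3 nearest profiles, and the 3 most abundant and up to 3 further members past the size rule of each list. The members and lists were chosen with earlier results of these data known.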

Additional observations from a re-analysis of the deposited data

How the results depend on the processing

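No paired analysis was possible by replicate number because each treatment and day is 1 library and no number is shared. The arms are paired by day, through the day term of the fit and the exact permutation of arms within days, whose p was 0.25 for miR-222-3p to miR-221-3p, 0.25 for miR-182-5p to miR-221-3p and 1 for miR-182-5p to both (smallest possible 0.25). For FK506 against untreated edgeR called 0 of 153 miRNAs. It called 4 of 507 with no low-count filter and 2 with no day term, DESeq2 called 5 and limma 1, and leaving out each library gave 0 to 3. For day 14 against day 7 DESeq2 called 1, and leaving out each library gave 0 to 5. With no low-count filter, run there though not listed beforehand, 6 were called, as were 9 for day 7 against day 3. None of these calls was a member: the adjusted p of the 3 fitted members ran from 0.0843 to 1.00 over all contrasts and alternatives.

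Sign changes occurred for all 3 fitted members. For FK506 against untreated miR-182-5p had -0.0026, but 0.064 scaled to the library total, 0.046 with TMM without the 3 most abundant, 0.14 with no low-count filter, 0.24 without FK506 day 3, 0.17 without untreated day 3 and 0.16 without untreated day 14, with a range of -0.14 to 0.24 over libraries left out. In the same contrast miR-222-3p had -0.56, but 0.020 without FK506 day 7 and 0.035 without untreated day 7, with a range of -0.94 to 0.035 over libraries left out. For day 14 against day 3 it had 0.02, but -0.046 with DESeq2, and -0.64 to 0.29 over libraries left out, among them -0.10 without FK506 day 7, -0.45 without untreated day 3 and -0.043 without untreated day 7. For day 14 against day 7 miR-221-3p had -0.35, but 0.25 scaled to the library total.

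Members past the size rule numbered 0 at day 14 for FK506 against untreated, but 3 scaled to the library total and 1 with a minimum of 10 reads (miR-183-5p). They numbered 0 for FK506 day 14 against day 3, but 3 scaled to the total. At day 7 miR-222-3p passed, while scaled to the reads outside miR-486-5p and miR-3107-5p 2 others did. Under that scaling 45 of the 129 miRNAs compared were higher and 46 lower. The cause of these changes was not tested. Of the other values of single miRNAs, 242 kept their direction and call and 23 left their counting interval. Adding 0.5 read to each count left every within-library ratio inside its interval. Depth limits miR-183-5p and miR-96-5p most.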
